A study of Homo sapiens with 6 samples.

Results

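CD96, the nectin family and the ligands of the natural killer (NK) receptor NKG2D were examined in human K562 cells. The set held 10 of the 60609 genes listed in the count tables: CD96, PVR, NECTIN1, NECTIN2, NECTIN3, MICA, MICB, ULBP1, ULBP2 and ULBP3. CD96 was chosen by its count, which was lower in Delta-TRRAP than in WT, and the other 9 were taken as members of the nectin family and of the NKG2D ligand family. Every symbol matched 1 gene identifier, and all 10 were among the 19114 genes tested. The difference of CD96 is therefore given as a description, without a test.

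K562 is an established leukaemia line with erythroid features. In the line used here, endogenous EP400, the scaffold and ATPase subunit of the TIP60 chromatin remodelling and acetyltransferase complex, carried a dTAG degron on both alleles. All 6 libraries came from cells treated with 500 nM dTAGV-1, which degrades the tagged protein, for 24 h. In WT the cells expressed exogenous wild-type EP400 from the AAVS1 locus, and in Delta-TRRAP they expressed EP400 without the SANT and HD domains, to which the TRRAP module binds. There were 3 libraries in each group. The study's methods describe the 3 as biological replicates of 1 clone per complemented line, so clone and genotype cannot be told apart. No untagged cells or cells without dTAGV-1 were among the libraries used.

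CD96 is a receptor of T and NK cells that belongs to the immunoglobulin superfamily. It binds PVR (CD155), a nectin-like adhesion molecule that tumour cells display, and shares this ligand with the activating receptor CD226 and the inhibitory receptor TIGIT, which both also bind NECTIN2 (CD112). Nectins are adhesion proteins at cell junctions that are anchored to actin by afadin. MICA, MICB and the ULBP proteins are distant relatives of MHC class I that appear on stressed or transformed cells, and their binding to NKG2D helps an NK cell to kill the cell that displays them. K562 lacks most surface MHC class I and is a classical target of NK cells. CD96 is also known as an antigen of leukaemic stem cells.

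The sequences at the transcription starts of 4 members are shown because they are the 3 ULBP genes, which rose, and CD96, which the set was built around. Each is 300 bases long, from 250 bases before the RefSeq start to 50 after it (GRCh38.p14), and is written on the strand of the gene. Capitals mark the GC box (GGGCGG), the CCAAT box, the TATA box (TATAAA) and the core of a cAMP response element (TGACG), on either strand.
ULBP2: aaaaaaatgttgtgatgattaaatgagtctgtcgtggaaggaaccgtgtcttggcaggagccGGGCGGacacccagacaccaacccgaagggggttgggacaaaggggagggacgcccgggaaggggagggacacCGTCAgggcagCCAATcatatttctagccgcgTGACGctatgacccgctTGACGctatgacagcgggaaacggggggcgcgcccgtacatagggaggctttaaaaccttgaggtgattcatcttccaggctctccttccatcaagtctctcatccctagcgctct
ULBP1: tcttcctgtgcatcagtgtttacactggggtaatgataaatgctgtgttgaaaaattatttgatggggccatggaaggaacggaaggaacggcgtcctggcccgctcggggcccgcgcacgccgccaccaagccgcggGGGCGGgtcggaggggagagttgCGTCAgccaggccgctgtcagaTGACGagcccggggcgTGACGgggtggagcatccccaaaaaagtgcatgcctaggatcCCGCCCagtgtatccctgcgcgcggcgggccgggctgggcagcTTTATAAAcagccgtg
ULBP3: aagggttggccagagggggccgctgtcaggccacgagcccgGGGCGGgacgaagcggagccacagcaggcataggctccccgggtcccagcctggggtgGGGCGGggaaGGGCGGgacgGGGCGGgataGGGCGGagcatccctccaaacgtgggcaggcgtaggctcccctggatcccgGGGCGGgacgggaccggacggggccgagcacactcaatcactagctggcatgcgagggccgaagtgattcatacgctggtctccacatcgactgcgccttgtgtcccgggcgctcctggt
CD96: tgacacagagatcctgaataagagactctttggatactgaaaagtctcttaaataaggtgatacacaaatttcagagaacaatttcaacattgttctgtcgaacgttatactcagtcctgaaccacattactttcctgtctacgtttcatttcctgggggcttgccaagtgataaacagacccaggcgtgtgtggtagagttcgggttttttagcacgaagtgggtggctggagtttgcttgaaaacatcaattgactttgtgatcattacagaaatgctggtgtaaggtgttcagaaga

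The windows lie at chr6:149941764-149942063 (ULBP2, plus strand), chr6:149963693-149963992 (ULBP1, plus strand), chr6:150069072-150069371 (ULBP3, minus strand) and chr3:111541947-111542246 (CD96, plus strand). In the ULBP genes, the last 50 bases were exonic in GENCODE release 44 and the rest lay upstream. The CD96 window lay inside the annotated gene, whose start is at 111292719, and 154 of its bases were exonic. ULBP2 held 1 GC box, 1 CCAAT box and 3 CRE cores. ULBP1 held 2 GC boxes, 3 CRE cores and a TATA box that reads on both strands in overlapping letters and so counted as 2 matches. ULBP3 held 6 GC boxes and no other marked motif. No marked motif was found in the CD96 window, whose GC content of 41.0% stood at percentile 13.0 of all promoters, against a median of 58.7%. Among 35116 promoters of the same length, 45.0% held a GC box, 34.6% a CCAAT box, 11.5% a TATA box and 24.6% a CRE core. The E-box CACGTG, present in 7.26% of promoters, was in none of the 9 members with a window in the table. The ETS core GGAAG, present in 71.9% of promoters, had 4 matches in ULBP2, 3 in ULBP1, 1 in ULBP3 and 0 in CD96. These matches describe letters and not bound sites.

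The libraries held 35076835 to 42616061 counts in genes, and 1 count corresponded to about 1 normalized count. Normalized counts are counts divided by the library size after TMM scaling, relative to the geometric mean of the 6 libraries. The transcript of EP400 itself had 5057 ± 277 normalized counts in WT and 5574 ± 1238 in Delta-TRRAP (SD, n = 3 per group). Its adjusted p was 0.272 (edgeR quasi-likelihood, Benjamini-Hochberg), and its count does not measure the protein or show the deleted region. The labels name the cells lymphoblasts. All 12 erythroid markers examined were expressed, and their summed normalized counts were 225709 to 227966 in WT against 154741 to 159368 in Delta-TRRAP. Most of this sum was TFRC, at 190031 to 194133 in WT against 85674 to 96018 in Delta-TRRAP. The other 11 summed to 32732 to 35849 in WT against 63350 to 69067 in Delta-TRRAP, but not each of them rose. ALAS2 went from a mean of 1241 in WT to 16645 in Delta-TRRAP and HBZ from 1439 to 10665. GATA1 went down from 6605 to 5815 and HBG1 from 2790 to 2098, but the HBG1 libraries overlapped between groups. HBG2, the other gamma globin gene, had 3668 in WT and 3551 in Delta-TRRAP, with an edgeR adjusted p of 0.744. Reads that map to both gamma globin genes were discarded. Over the 12, 6 were higher and 3 lower at an edgeR adjusted p of 0.01 or less. That threshold was passed by 58.3% of all genes tested. Of 24 NK and T cell markers, 11 were expressed highly enough to be tested and summed with the rest to 661 to 705 in WT against 597 to 626 in Delta-TRRAP, most of it from CD3D. CD8A was at 0 in all libraries, and GNLY and GZMA had 1 count each in all. Of 8 fibroblast markers, PDGFRA and LUM were at 0 in all libraries, while COL1A2 was 1.62 ± 1.99 in WT and 876 ± 45.1 in Delta-TRRAP (SD, n = 3 per group). The part of these markers in the results below was not tested. In bulk RNA, fewer cells with a transcript and less of it per cell cannot be told apart.

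The data held changes in both directions (see the plot of counts by library). A gene was called at an adjusted p of 0.01 or less together with a fold change of at least 2. It was met by 22.6% of all genes tested. CD96 was chosen for its fall and is left out of the counts that follow. Of the other 9 members, ULBP1, ULBP2, ULBP3 and NECTIN1 rose by this rule, as did 16.5% of all genes, and NECTIN3 was lower by it, as were 6.08% of all genes. These 9 had an adjusted p of 0.01 or less at some fold change, as did 58.3% of all genes, so passing it is common in these data. For each of the 9, all libraries of 1 group lay above all of the other, which held for 71.1% of all genes tested. CD96 and NECTIN3 passed the filter of 5 mean normalized counts only through WT, since their Delta-TRRAP means were below it, so these counts are a description. Other tested genes named below with a group mean under 5 also passed through 1 group only, and their edgeR values are a description too. The median log2 fold change was 0.53 over the 9 and 0.03 over all genes tested.

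**Figure D1:**
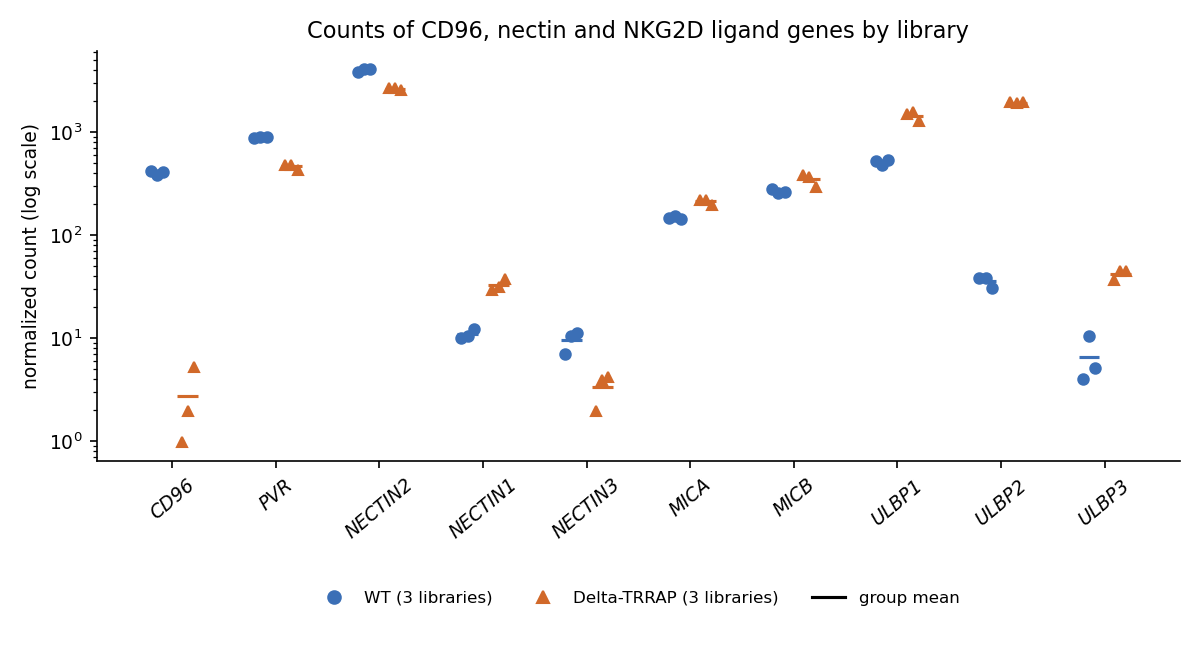
Normalized counts (log axis) of the 10 genes in each library, with WT as circles, Delta-TRRAP as triangles and bars at the group means (3 libraries per group). CD96 lay at 383 to 420 in WT and at 0.981 to 5.29 in Delta-TRRAP, and ULBP2 moved from 30.5 to 38.5 in WT to 1883 to 1940 in Delta-TRRAP.

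CD96 (ENSG00000153283.13, GRCh38 chr3:111292719-111665750, plus strand) was readily measured in WT and nearly absent in Delta-TRRAP. Its raw counts were 415, 399 and 399 in WT replicates 1, 2 and 3, and 1, 2 and 5 in Delta-TRRAP replicates 1, 2 and 3. Every WT library was far above every Delta-TRRAP library. The mean was 403 ± 19.0 normalized counts in WT and 2.74 ± 2.26 in Delta-TRRAP (SD, n = 3 per group). The ratio of WT to Delta-TRRAP counts, scaled for library size, was 151, with an exact 95% interval of 76.2 to 350 that covers counting error only. The log2 fold change was -7.17 ± 0.21 (SE). The lower end rests on 8 reads, of which 5 were in Delta-TRRAP replicate 3, and the log2 fold change was -7.99 without that library.

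The nearest annotated genes did not share the size of this difference. NECTIN3, described below, ends 17.2 kb before the outermost annotated start of CD96. The RefSeq start of CD96 lies further in, at 111542197. AC092916.1 is a long non-coding RNA on the opposite strand, within the annotated CD96 gene but before its RefSeq start. It fell from 8.99 ± 1.88 to 0.977 ± 0.975 normalized counts (SD, n = 3 per group). It passed the filter only through WT, so its edgeR values, a log2 change of -3.01 ± 0.64 (SE) and an adjusted p of 0.00064, are a description. The counting used strand, and whether any reads of AC092916.1 came from CD96 was not checked. On the far side, PLCXD2 lies 8.93 kb away and had a log2 fold change of -0.08 ± 0.29 (SE), which was within the spread between replicates. ABHD10 lies 313 kb away and had a log2 fold change of -0.32 ± 0.06 (SE). DPPA4, the third tested gene on the near side, lies 1955 kb away and rose by 2.19 ± 0.24 (SE) on the log2 scale. Leaving out NECTIN3, the 9 other tested genes within 1 Mb of CD96 had a median log2 fold change of 0.07, with 4 of them below 0.

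PVR, the main ligand that CD96 binds, was present in all libraries and lower in Delta-TRRAP. PVR (chr19:44643798-44666162, plus strand) had 864, 886 and 881 normalized counts in WT and 480, 481 and 423 in Delta-TRRAP. The groups did not overlap. Its mean was 877 ± 11.5 in WT and 461 ± 32.9 in Delta-TRRAP (SD, n = 3 per group), a 1.90-fold difference. The edgeR fit gave a log2 change of -0.93 ± 0.07 (SE) and an adjusted p of 6.94e-09, and the gene was not called because it stayed short of a fold change of 2. Of the 6 tested members outside the ULBP family other than CD96, PVR had the smallest adjusted p.

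NECTIN2, which lies 180.0 kb from PVR and binds CD226 and TIGIT, had the same direction. NECTIN2 (chr19:44846175-44889223, plus strand) had 3802, 4029 and 4026 normalized counts in WT and 2646, 2632 and 2562 in Delta-TRRAP. Its mean went from 3952 ± 130 to 2613 ± 45.0 (SD, n = 3 per group), without overlap. By edgeR the log2 change was -0.60 ± 0.05 (SE) at an adjusted p of 3.94e-08, and it was not called. Per kilobase of exon, NECTIN2 stood at 12.3 to 12.7 times PVR in the WT libraries and at 15.3 to 16.9 times in the Delta-TRRAP libraries.

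Lower values were common among the more abundant genes around PVR and NECTIN2, but not among all tested genes within 1 Mb. Of the 64 other tested genes within 1 Mb of PVR, 32 had a log2 fold change below 0, with a median of -0.003. Of the 74 around NECTIN2, 40 were below 0, with a median of -0.09. Among genes with a mean of at least 100 normalized counts within 5 Mb of PVR, 128 of 164 had a log2 fold change below 0, with a median of -0.38. Over all genes with such a mean, 6512 of 11442 were below 0 and the median was -0.09. The part of the region in the values of PVR and NECTIN2 was not tested. Of the nearest tested genes beyond NECTIN2, TOMM40 (a mitochondrial import channel) had a log2 fold change of -0.98 ± 0.05 (SE). APOE and APOC1, which encode apolipoproteins, fell by 2.0 ± 0.06 and 1.14 ± 0.09 (SE) on the log2 scale. BCL3 and BCAM, which lie between PVR and NECTIN2, had log2 fold changes of 0.52 ± 0.18 and 0.33 ± 0.21 (SE) and did not pass the edgeR adjusted p of 0.01. On the other side of PVR, ZNF229 was higher at 0.83 ± 0.08 (SE), ZNF180 lower at -0.68 ± 0.07 (SE) and the pseudogene CEACAM22P at -0.97 ± 0.43 (SE) on the log2 scale, and none was called.

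NECTIN1 and NECTIN3, which encode junctional nectins, were near the lower limit of these libraries and went opposite ways. NECTIN1 (chr11:119623408-119729200, minus strand) had 10.1, 10.6 and 12.2 normalized counts in WT and 29.4, 31.2 and 37.0 in Delta-TRRAP. It rose 2.94-fold, from 11.0 ± 1.10 to 32.5 ± 3.98 (SD, n = 3 per group), with an edgeR adjusted p of 6.90e-05. The log2 fold change was 1.56 ± 0.26 (SE). None of the 30 other tested genes within 1 Mb of NECTIN1 was called, and their median log2 fold change was 0.05. The 3 nearest on either side were RNF26, USP2 and USP2-AS1 before it and TRIM29, OAF and TLCD5 after it, with log2 fold changes of -0.90 (OAF) to 0.98 (TRIM29).

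NECTIN3 (chr3:111070071-111275563, plus strand) had raw counts of 7, 11 and 11 in WT and 2, 4 and 4 in Delta-TRRAP. These few reads did not overlap between groups, at 9.61 ± 2.21 and 3.36 ± 1.23 normalized counts (SD, n = 3 per group). Since NECTIN3 passed the filter only through WT, its edgeR values, a log2 change of -1.49 ± 0.46 (SE) and an adjusted p of 0.0096, are given as a description. The adjusted p was 0.0129 without the filter. The call also rested on the test chosen: the adjusted p was 0.0568 by DESeq2 and 0.0109 by limma-voom, and it stayed below 0.01 in only 1 of the 6 edgeR fits that left out a library (without WT replicate 1). The difference rests on 29 reads in WT and 10 in Delta-TRRAP. NECTIN3-AS1, a long non-coding RNA whose gene precedes NECTIN3 on the opposite strand, rose from 3.04 ± 3.04 to 19.2 ± 6.01 normalized counts (SD, n = 3 per group). NECTIN3-AS1 passed the filter only through Delta-TRRAP, so its edgeR values, a log2 change of 2.65 ± 0.54 (SE) and an adjusted p of 0.000475, are a description. MORC1, the third tested gene on that side after NECTIN3-AS1 and DPPA4, lies 1952 kb away and rose by 4.44 ± 0.29 (SE) on the log2 scale.

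The 5 NKG2D ligands were all higher in every Delta-TRRAP library than in any WT library, though by very different amounts, in data where 71.1% of all genes did not overlap between groups. The ULBP genes, whose proteins are held in the membrane mostly by a lipid anchor, passed the call rule, and the MIC genes, which encode transmembrane proteins, did not.

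ULBP2 (chr6:149942014-149949235, plus strand) had 38.5, 38.4 and 30.5 normalized counts in WT and 1940, 1883 and 1930 in Delta-TRRAP. It rose 53.3-fold, from 35.8 ± 4.57 to 1918 ± 30.2 (SD, n = 3 per group), with a log2 fold change of 5.74 ± 0.09 (SE). Its edgeR adjusted p was 3.71e-16. Raw counts summed to 108 in WT and 5735 in Delta-TRRAP. Near-identical sequence limits how these reads can be assigned. Of all 50-base runs in its annotated transcripts, 32.6% also occurred in other genes, most of them in RAET1L, and of 100-base runs 12.1% did. RAET1L had no counts in WT and 5, 3 and 1 in Delta-TRRAP, and reads that map to both were discarded.

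ULBP1 (chr6:149963943-149973715, plus strand), 14.7 kb beyond ULBP2, was the most abundant NKG2D ligand transcript in WT per kilobase. It had 516, 479 and 529 normalized counts in WT and 1504, 1540 and 1270 in Delta-TRRAP. It rose 2.83-fold, from 508 ± 26.1 to 1438 ± 147 (SD, n = 3 per group), with a log2 fold change of 1.5 ± 0.08 (SE) and an edgeR adjusted p of 1.51e-10. Delta-TRRAP replicate 3 was the lowest of its group here, as it was for MICA, MICB and PVR, while it was not for ULBP2.

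ULBP3 (chr6:150061053-150069121, minus strand), 87.3 kb from ULBP1, was rare. Its raw counts were 4, 11 and 5 in WT and 37, 46 and 42 in Delta-TRRAP, and even the highest WT library was below the lowest Delta-TRRAP library. It rose 6.20-fold, from 6.56 ± 3.49 to 41.9 ± 4.83 normalized counts (SD, n = 3 per group), with a log2 fold change of 2.63 ± 0.31 (SE) and an edgeR adjusted p of 2.04e-06.

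The neighbours of the ULBP genes differed among themselves. RAET1K, a pseudogene of the family between ULBP1 and ULBP3, rose from 14.6 ± 1.43 to 59.0 ± 6.61 normalized counts (SD, n = 3 per group), with a log2 fold change of 2.0 ± 0.21 (SE) and an edgeR adjusted p of 7.13e-07. It shares 6.70% of the 50-base runs of ULBP1 and 4.41% of those of ULBP3. Before the cluster, LRP11 (0.21 ± 0.24, SE), the pseudogene BTBD10P2 (0.80 ± 0.47, SE) and PCMT1 (0.00 ± 0.05, SE) had log2 fold changes within the spread between replicates. The pseudogene BTF3P10 within the cluster also did, at -0.12 ± 0.46 (SE). After the cluster, PPP1R14C fell by 2.40 ± 0.15 (SE) on the log2 scale, from 243 ± 17.1 to 46.2 ± 13.5 normalized counts (SD, n = 3 per group). PLEKHG1 was at 0 in all WT libraries and reached 12.7 ± 0.993 (SD, n = 3) in the others, and PDCL3P5 did not pass the test. Over the 22 tested genes within 1 Mb of ULBP1 other than the ULBP genes, the median log2 fold change was 0.05.

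**Figure D2:**
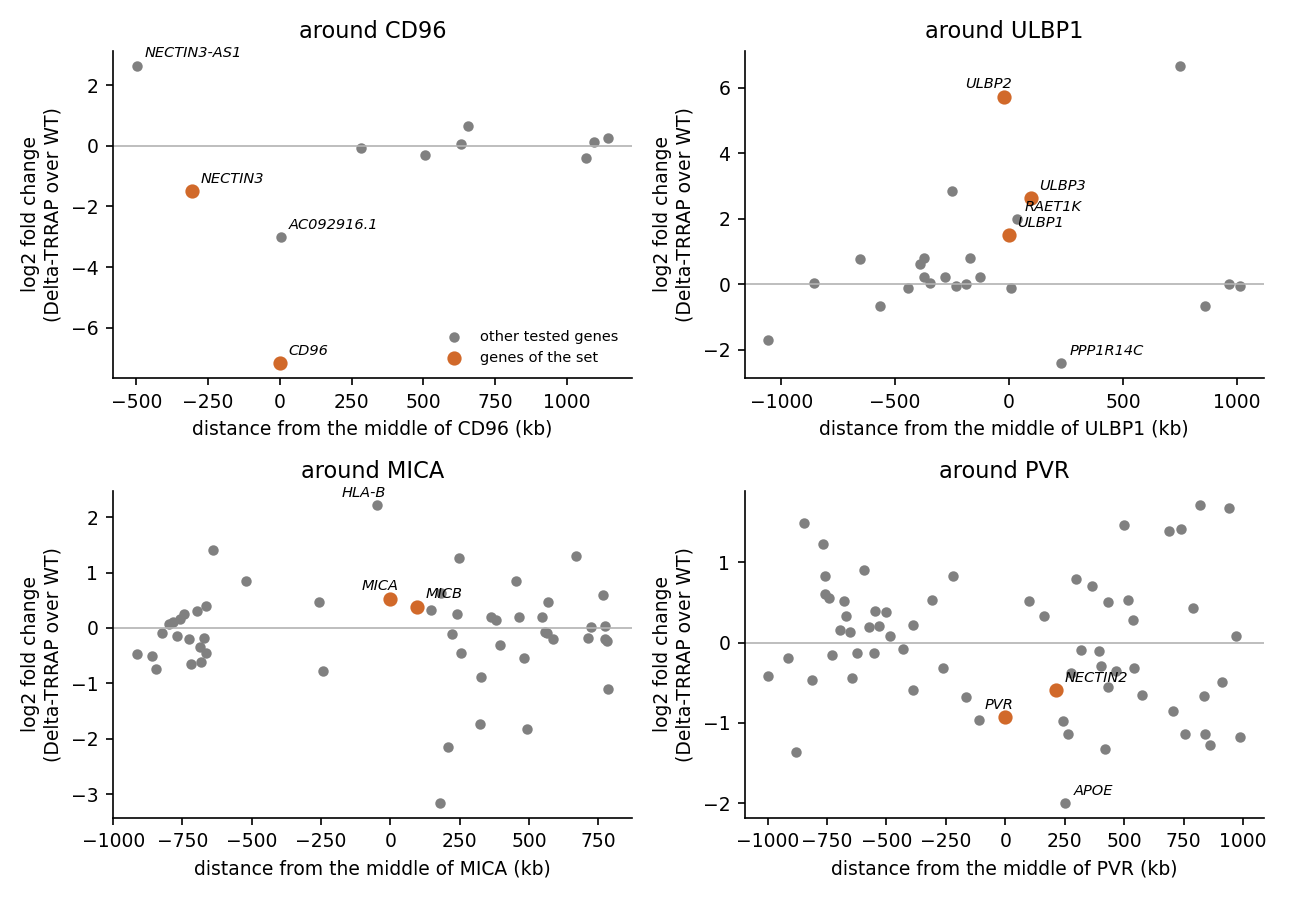
Log2 fold change (Delta-TRRAP over WT) of tested genes within 1 Mb of CD96, ULBP1, MICA and PVR against distance from the middle of that gene in kb, with genes of the set in orange. CD96 lay at -7.17 and ULBP2 at 5.74 among neighbours with medians of 0.07 and 0.05, and the grey point near the top of the ULBP1 panel is PLEKHG1, which had no counts in WT.

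MICA and MICB, 79.6 kb apart beside HLA-B, were modestly higher. MICA (chr6:31399784-31415315, plus strand) had 147, 152 and 142 normalized counts in WT and 219, 220 and 197 in Delta-TRRAP. Its mean went from 147 ± 4.56 to 212 ± 13.2 (SD, n = 3 per group), with a log2 fold change of 0.53 ± 0.10 (SE) and an edgeR adjusted p of 0.000211. MICB (chr6:31494881-31511124, plus strand) had 279, 258 and 261 in WT and 384, 365 and 291 in Delta-TRRAP. The WT maximum and the Delta-TRRAP minimum of MICB were thus close, and Delta-TRRAP replicate 3 stood nearest to WT. Its mean went from 266 ± 11.0 to 347 ± 49.3 (SD, n = 3 per group), with a log2 fold change of 0.38 ± 0.10 (SE) and an edgeR adjusted p of 0.00326. That p rose to 0.019 without WT replicate 2, 0.0131 without WT replicate 3 and 0.0286 without Delta-TRRAP replicate 1.

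Around the MIC genes, HLA-B, a classical MHC class I gene, rose from 5.92 ± 2.79 to 28.2 ± 4.26 normalized counts (SD, n = 3 per group), with a log2 fold change of 2.21 ± 0.34 (SE). LST1, a gene of leukocytes, fell by 3.16 ± 0.53 (SE) on the log2 scale. NFKBIL1 (0.32 ± 0.10, SE) and CCHCR1 (0.46 ± 0.06, SE) were higher and TCF19 (-0.78 ± 0.15, SE) lower on the log2 scale without being called, and NCR3 did not pass the test. HLA-B belongs to a multigene family, and reads that map to more than 1 gene were discarded, so its count is uncertain.

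The levels of different genes were compared per kilobase of exon. In WT, NECTIN2 was highest at 1056 ± 34.8 normalized counts per kb, followed by ULBP1 at 158 ± 8.13 and then MICB at 95.1 ± 3.94 and PVR at 84.1 ± 1.10. CD96, at 71.7 ± 3.39, stood between PVR and MICA, which had 38.2 ± 1.19 (SD, n = 3 for each). ULBP2 followed at 26.8 ± 3.42, and ULBP3, NECTIN1 and NECTIN3 had 1.25 to 2.11 and overlapped among libraries. In Delta-TRRAP, ULBP2 had moved to the top at 1437 ± 22.6 normalized counts per kb, above NECTIN2 at 698 ± 12.0 and ULBP1 at 448 ± 45.6. MICB had 124 ± 17.6, MICA 55.0 ± 3.42 and PVR 44.2 ± 3.16 (SD, n = 3 for each). ULBP3 had 13.5 and NECTIN1 4.16. CD96 and NECTIN3 were last, at 0.487 and 0.436, and overlapped among libraries. Other neighbours in these orders did not overlap among libraries. With the longest transcript as the length, PVR stood above MICB in WT and NECTIN3 above CD96 in Delta-TRRAP.

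**Figure D3:**
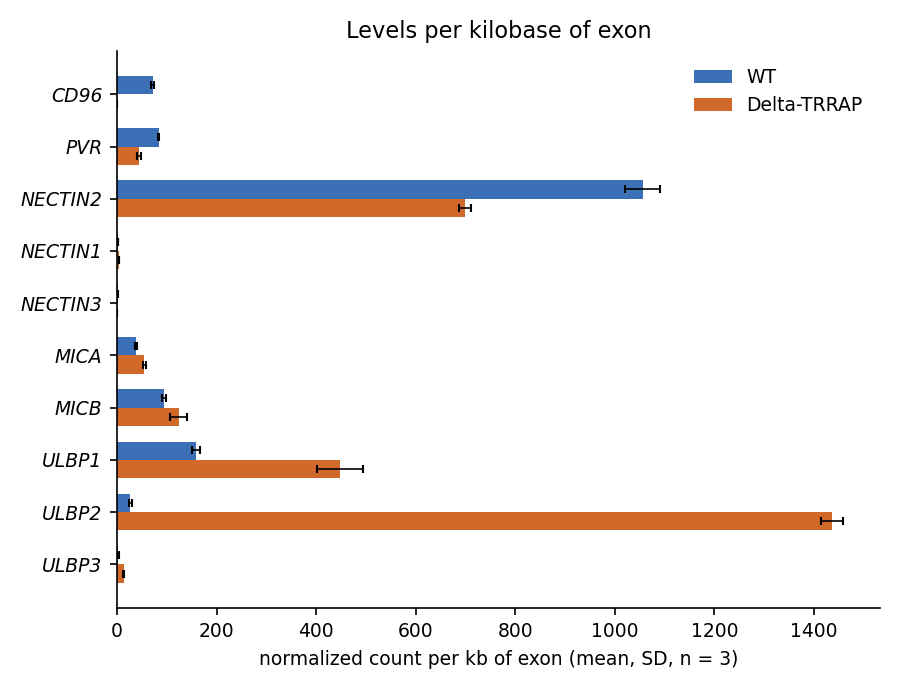
Mean normalized count per kb of exon for the 10 genes in WT and Delta-TRRAP, with bars starting at 0 and whiskers of 1 SD over 3 libraries. NECTIN2 is the longest bar in WT (1056) and ULBP2 in Delta-TRRAP (1437).

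Summed per kilobase, the 5 NKG2D ligands reached 313 to 329 normalized counts per kb in the WT libraries against 2011 to 2127 in the Delta-TRRAP libraries. The makeup of that sum differed. ULBP2 was 7.15% to 9.19% of it in WT but 67.4% to 71.9% in Delta-TRRAP, while ULBP1 went from 47.7% to 51.5% in WT to 19.7% to 22.9% in Delta-TRRAP. MICA and MICB together went from 40.8% to 42.1% in WT to 7.71% to 9.13% in Delta-TRRAP, although each was higher there. The ratio of ULBP2 to ULBP1 per kb was 0.139 to 0.193 in WT but 2.94 to 3.65 in Delta-TRRAP. The ratio of MICB to MICA, 2.34 to 2.61 in WT against 2.03 to 2.42 in Delta-TRRAP, overlapped between groups. The 4 nectin-family genes summed to 1101 to 1164 normalized counts per kb in WT against 731 to 757 in Delta-TRRAP, of which NECTIN2 made up 92.3% to 93.7% in every library. These sums are of transcripts and not of protein at the surface.

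**Figure D4:**
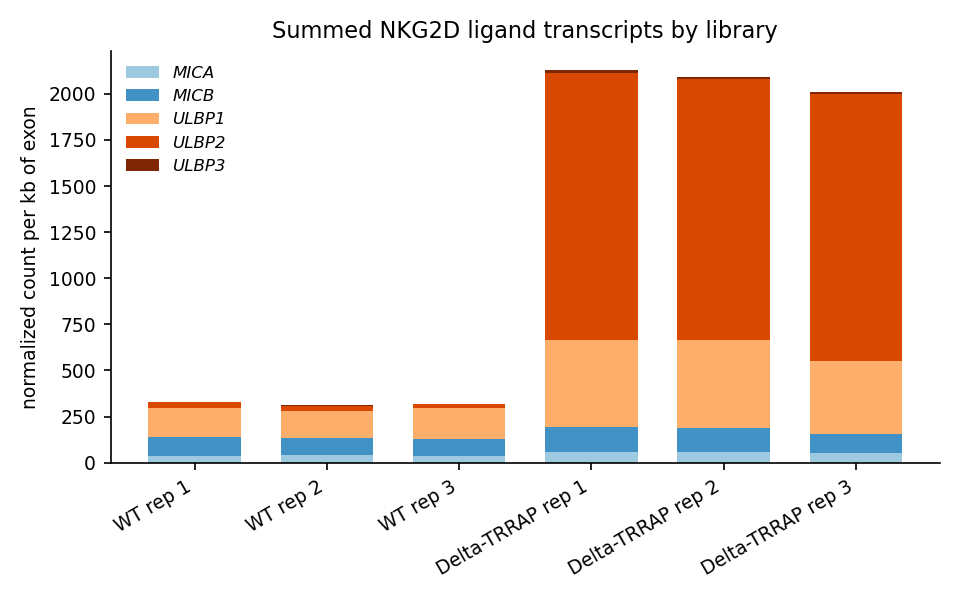
Stacked normalized counts per kb of exon of the 5 NKG2D ligand genes in each library. The WT stacks reach 313 to 329 and are mostly ULBP1 and the MIC genes, and the Delta-TRRAP stacks reach 2011 to 2127 and are mostly ULBP2.

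Genes of the same receptor and ligand systems were then taken from lists. Of the receptors that share PVR or nectins with CD96, CD226 rose from 240 ± 10.9 to 485 ± 23.6 normalized counts (SD, n = 3 per group), opposite to CD96. The edgeR fit gave a log2 change of 1.02 ± 0.08 (SE) and an adjusted p of 1.63e-08, so that it lay just past a fold change of 2, and it fell short of that without WT replicate 2 (log2 0.97), without Delta-TRRAP replicate 2 (0.98) or without the filter (0.99). TIGIT had raw counts of 1, 0 and 0 in WT and 5, 3 and 10 in Delta-TRRAP and was too low to be tested, as were PVRIG and CRTAM. KLRK1, which encodes NKG2D itself, had no counts in any library. Among nectin-like genes, CADM2 and CADM4, adhesion proteins of the same superfamily, rose by 1.99 ± 0.11 and 1.05 ± 0.10 (SE) on the log2 scale, and CADM4 was at 0.99 without WT replicate 1. AFDN, which encodes afadin, was higher at 0.64 ± 0.07 (SE) and not called. NECTIN4, CADM1 and CADM3 were too low to be tested.

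The further NKG2D ligands RAET1E, RAET1G and RAET1L were all too low to be tested. RAET1G had raw counts of 2, 0 and 0 in WT and 3, 4 and 5 in Delta-TRRAP, and RAET1E had 1 count, in Delta-TRRAP replicate 3. Genes for proteins that shed NKG2D ligands from the surface were all slightly lower, with log2 fold changes of -0.41 ± 0.05 (SE) for ADAM10, -0.42 ± 0.05 (SE) for ADAM17 and -0.39 ± 0.05 (SE) for PDIA6. All 3 passed the edgeR adjusted p of 0.01 and none was called. Of 12 factors reported to drive transcription of NKG2D ligands, none was called by edgeR, 6 were lower and 1 higher at an adjusted p of 0.01 at any fold change (58.3% of all genes passed it in either direction), and the median log2 fold change was -0.17. The lowest was ATM, the kinase of the DNA damage response, at -0.74 ± 0.06 (SE), followed by CHEK2, its target kinase, at -0.71 ± 0.06 (SE).

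Of 11 tested genes for other ligands of activating NK receptors and for adhesion, 4 were called, against 22.6% of all genes tested. SLAMF7, a receptor that engages itself on NK cells, rose 38.7-fold, from 8.68 ± 3.24 to 339 ± 18.2 normalized counts (SD, n = 3 per group). CD70, the ligand of CD27, rose 3.15-fold. ICAM3, a ligand of the integrin LFA-1, fell by 1.24 ± 0.09 (SE) and CLEC2B, the ligand of the NK receptor NKp80, fell by 1.77 ± 0.11 (SE) on the log2 scale. The median of this list was -0.36.

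NCR3LG1 (B7-H6), the ligand of the NK receptor NKp30, was named after its values were seen. Its normalized counts were 3676, 3834 and 4070 in WT and 2232, 2873 and 1212 in Delta-TRRAP, where replicate 3 was the lowest and the groups did not overlap. By edgeR the log2 change was -0.87 ± 0.19 (SE) at an adjusted p of 0.000771, and it was not called.

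Of 8 tested genes for ligands of inhibitory receptors, 3 rose and 1 fell by the same rule (16.5% and 6.08% of all genes), with a median log2 fold change of 0.03. CEACAM1, a homophilic inhibitory receptor, rose from 3.99 ± 0.13 to 175 ± 14.9 normalized counts (SD, n = 3 per group). CEACAM1 passed the filter only through Delta-TRRAP, so its call is a description. CD274, which encodes PD-L1, rose from 6.62 ± 2.22 to 22.3 ± 4.39, and HLA-B rose as given above. CD47, the ligand by which cells restrain phagocytes, fell from 7152 ± 133 to 2676 ± 83.3 (SD, n = 3 per group), with a log2 fold change of -1.42 ± 0.05 (SE). B2M, the light chain of MHC class I, was lower at -0.95 ± 0.07 (SE) on the log2 scale and not called.

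Among 8 genes for death receptors and resistance to cytotoxic granules, 1 was called (22.6% of all genes were), FAS, the death receptor of Fas ligand. It rose 41.1-fold, from 4.65 ± 1.54 to 196 ± 8.53 normalized counts (SD, n = 3 per group), with a log2 fold change of 5.36 ± 0.21 (SE) and an edgeR adjusted p of 6.54e-12. FAS passed the filter only through Delta-TRRAP, so these edgeR values are a description. SERPINB9, an inhibitor of granzyme B, was higher at 0.89 ± 0.05 (SE), and TNFRSF10A, a TRAIL receptor, lower at -0.79 ± 0.05 (SE) on the log2 scale. TNFRSF10B, another TRAIL receptor, was at -0.03 ± 0.05 (SE), and TNFRSF1A and CD55 were lower at -0.97 ± 0.07 and -0.91 ± 0.05 (SE). Of the 8 genes, 4 were higher and 3 lower at an edgeR adjusted p of 0.01 or less, which 58.3% of all genes passed.

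**Figure D5:**
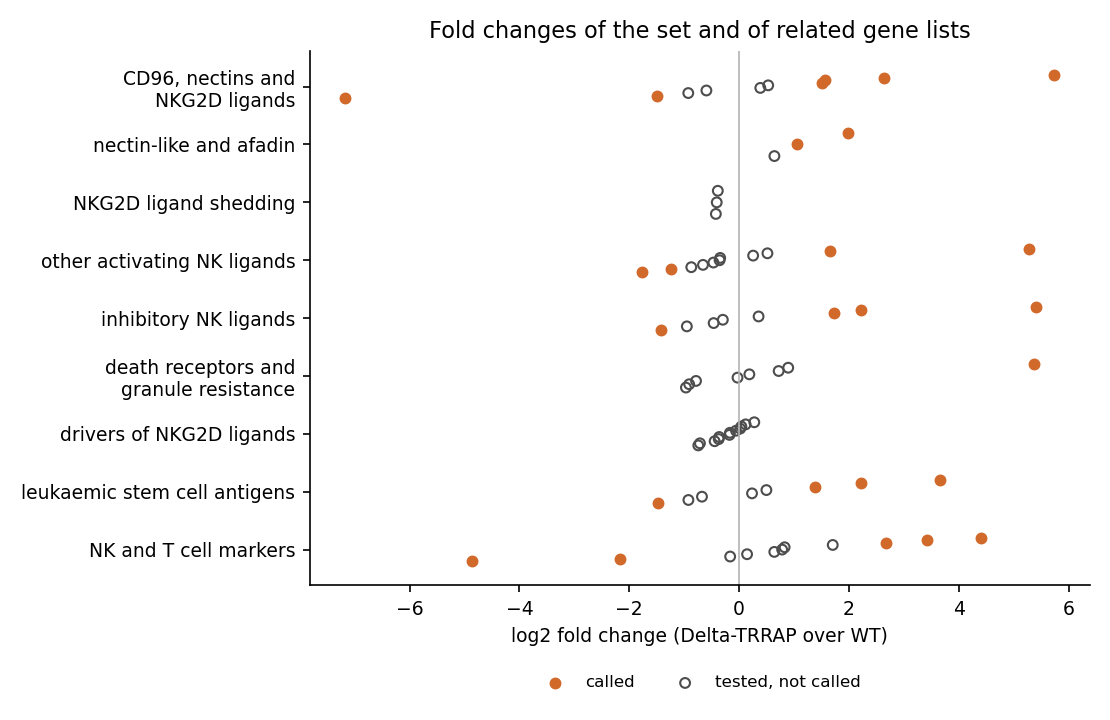
Log2 fold change (Delta-TRRAP over WT) of each tested gene in the set and in 8 related lists, 1 point per gene, filled where the gene was called. The set spans -7.17 (CD96) to 5.74 (ULBP2), while the 12 factors reported to drive NKG2D ligands span -0.74 to 0.28 and hold no called gene.

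Since CD96 is a gene of NK and T cells, the markers of those cells were also followed gene by gene. Of the 11 tested, 3 rose and 2 fell, against 16.5% and 6.08% of all genes. The 3 that rose passed the filter only through Delta-TRRAP, and NKG7, which fell, only through WT, so these counts are a description. GZMB, a granule protease, rose from 2.67 ± 1.20 to 58.1 ± 12.3 normalized counts (SD, n = 3 per group), NCAM1 from 1.66 ± 1.54 to 19.0 ± 3.09, and ZAP70, a kinase of the T cell receptor, from 3.33 ± 1.58 to 21.7 ± 5.02. NKG7, a granule membrane protein, fell from 22.9 ± 3.60 to 0.652 ± 0.565, and PRF1, which encodes perforin, fell from 137 ± 20.1 to 30.4 ± 2.85 (SD, n = 3 per group). CD3D, the most abundant of them, had 434 ± 5.38 in WT and 387 ± 19.1 in Delta-TRRAP (SD, n = 3 per group) and did not pass the edgeR test (adjusted p of 0.052). Of the 13 markers too low to be tested, 4 were lower in every Delta-TRRAP library than in any WT library and none was higher in that way. These were CD2 (20 counts in WT and 2 in Delta-TRRAP over the 3 libraries), NCR1 (27 and 3), CD7 (7 and 0) and LCK (7 and 1), named after their values were seen. The share of 71.1% without overlap was over tested genes, and none was taken over genes this low, so the count of 4 is a description.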

How the data were processed

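The study's authors deposited read counts per gene for each of 6 poly(A) RNA libraries. Per the labels and methods, stranded libraries were aligned to hg38 with STAR, keeping reads that mapped to 1 place, and counted with HTSeq 2.0.2 (reverse strand, union mode, GENCODE genes). These deposited counts were not normalized. The authors' normalized table, which holds 3 columns of another condition, and their table of fold changes and p-values were not used. Groups came from the sample titles. The test was that of edgeR 4.0.16 under R 4.3.3 (TMM, quasi-likelihood F test, group as the only term) over the 19114 of 34998 genes with a count that had a mean normalized count of at least 5, with Benjamini-Hochberg adjustment over all of them. Thresholds followed the study's methods, which used DESeq2. Gene positions and exon lengths came from GENCODE release 44 on GRCh38 and promoters from RefSeq (GRCh38.p14), which held 9 of the 10 genes. The study's methods counted reads on an earlier GENCODE release, so levels per kilobase divide those counts by lengths of a later one. The fit was tested on simulated data. Alternatives were DESeq2 1.42.0, limma-voom (limma 3.58.1), other scalings and filters, a fold change of 1.5, a replicate block and leaving out each library. Named genes were the 10 members, all called genes of the lists, CD226, TIGIT, KLRK1, further NKG2D ligands, the 3 nearest tested genes on each side of each member and the 5 genes most correlated with CD96, with a few others named beside a count they belong to. Members and lists were chosen with earlier results of these data known. Same-numbered libraries did not deviate together (correlations of deviations of 0.0113, -0.0571 and -0.0853).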

Additional observations from a re-analysis of the deposited data

How the results depend on the processing

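The main fit called 4322 genes, 22.6% of those tested, and 6 members. Counts of members in this paragraph include CD96, which was chosen for its fall, so they are a description. The calls rested most on the filter and the fold change threshold. With a mean of at least 50 normalized counts, 1964 genes and 3 members were called, since fewer genes could be called, and at a fold change of 1.5, 6750 genes and 8 members were called, since the rule was looser. Otherwise 5 members were called by DESeq2 (3983 genes), limma-voom (4283), library size alone (4521), without the filter (5098) and with the replicate block (4184), the missing member being NECTIN3 each time, and 6 with RLE size factors (4322). Leaving out 1 library gave 4016 to 4263 genes and 5 to 6 members. The replicate numbers mark no shared batch in the labels, and under the block NECTIN3 had an adjusted p of 0.0142. Under library size alone the median over all genes shifted from 0.03 to 0.168 (log2). By DESeq2 HAVCR2 (adjusted p 0.0122), PDGFRB (0.0103) and NCR3LG1 (0.0136) missed 0.01. The fold change of 2 was missed by TFRC under library size alone (log2 -0.96), by CD226 without the filter (0.99) and in 2 fits without 1 library, and by CADM4 in 1 such fit. Neighbours with values near 0 changed sign. PCMT1 was at -0.0056 by DESeq2, -0.0057 with RLE size factors and -0.021 without the filter, BTF3P10 at 0.017 by limma-voom and 0.0061 by library size alone, and PLCXD2 at 0.055 by library size alone. Without single libraries, log2 fold changes ranged from -0.037 to 0.046 for PCMT1, -0.48 to 0.12 for BTF3P10, -0.27 to 0.073 for PLCXD2 and -0.063 to 0.15 for USP2. Genes under about 10 counts per library (NECTIN3, ULBP3 in WT, CD96 in Delta-TRRAP) are limited by depth.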

Other observations

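CD96 is also listed among antigens of leukaemic stem cells, and other such antigens moved in both directions. Of 8 tested, 4 were called, against 22.6% of all genes. CD38 rose from 5.94 ± 1.82 to 76.3 ± 4.44 normalized counts (SD, n = 3 per group), CD93 from 37.1 ± 2.39 to 96.2 ± 16.4 and HAVCR2 (TIM-3) from 1.99 ± 0.06 to 9.79 ± 3.93. HAVCR2 passed the filter only through Delta-TRRAP, so its call is a description. KIT, the receptor of stem cell factor, fell from 225 ± 10.01 to 80.8 ± 8.80. CD33 was lower at -0.68 ± 0.06 (SE) on the log2 scale and not called. CD34, IL3RA, CLEC12A and CD99 were too low to be tested, with at most 2 counts in any library. IL3RA and CD99 lie in a part of chromosome X that has a copy on Y, and reads that map to more than 1 place were discarded. Their counts are therefore uncertain and do not show that the genes were silent.

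The erythroid list moved in both directions. HBZ (embryonic zeta globin) rose by 2.89 ± 0.09, HBE1 (epsilon globin) by 2.08 ± 0.29 and ALAS2 (the first enzyme of haem synthesis in red cells) by 3.75 ± 0.06, while TFRC, the transferrin receptor, fell by 1.09 ± 0.06 (log2 scale, SE). HBE1 was rare, with raw counts of 9, 6 and 14 in WT and 37, 49 and 37 in Delta-TRRAP. Its annotated span overlaps that of HBG2 on the same strand, and the effect of this on its count was not checked. Under library size alone TFRC was at -0.96 and so short of a fold change of 2. Of the 4 tested genes of the fibroblast list, COL1A2 and PDGFRB were called, against 22.6% of all genes. PDGFRB rose from 1.65 ± 1.54 to 9.34 ± 1.21 normalized counts (SD, n = 3 per group). Both passed the filter only through Delta-TRRAP, so their calls are a description. The other tested genes, COL1A1 and DCN, had log2 fold changes of 0.06 ± 0.29 and -0.41 ± 0.47 (SE) and did not pass the edgeR adjusted p of 0.01.

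The 5 genes whose pattern was most like that of CD96 were CMPK1, HNRNPDL, CNOT7, MTA1 and CDR2, with Pearson's r of 0.9991 to 0.9997 over the 6 libraries on log2 values with a pseudocount of 1. Likeness here is of the order of libraries and not of size, since their log2 fold changes were -0.24 to -0.58. Among 11458 genes compared, 513 had r of 0.99 or more, and the 6 libraries fall into 2 groups, so this is a description only.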
